A study of Mus musculus with 6 samples.

Results

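The genes described here encode the proteins of intermediate filaments, 53 keratin genes and 13 other genes, among 22180 mouse genes with a probe set of their own. Members were taken by name: every gene with a keratin symbol (Krt and a number), together with Vim, Des, Nes, Gfap, Prph, Nefl, Nefm, Nefh, Ina, Synm, Lmna, Lmnb1 and Lmnb2. The 66 genes had 68 probe sets in all. Where a gene had more than 1, as Krt18 and Vim did, the brightest one stood for it. The rule for members used names and no measured value of these arrays, though the lists were drawn up with earlier results known. Keratin genes Krt3, Krt5 and Krt85, which appear in the role lists used below, were not analysed here.

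Intermediate filaments are the rope-like part of the cytoskeleton, and the set of filament genes a cell uses is a marker of its lineage. Keratins are obligate heteropolymers: each filament pairs a type I keratin with a type II keratin, as in the keratin 18 and keratin 8 filaments of simple and luminal prostate epithelium or the keratin 14 and keratin 5 filaments of basal cells. Vimentin is the filament protein of mesenchymal cells, nestin and the neurofilament proteins are used by progenitor and nerve cells, and the lamins line the inside of the nucleus. Epithelial filaments are anchored at desmosomes between cells and at hemidesmosomes on the basement membrane.

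RNA came from prostate epithelial cancer cells of Rb1F/F:Trp53F/F:PB-Cre4 mice. In these mice both tumour suppressor genes carry floxed alleles and are cut by a Cre recombinase under a probasin promoter, which acts in prostate epithelium. Both groups share this background and a lentiviral infection. The EV cells received an empty vector (3 arrays) and the PIM1 cells a vector for the serine/threonine kinase PIM1 (3 arrays). The labels do not give the age of the mice, the number of mice or clones behind the cells, or whether the arrays of a group came from separate cultures. The p-values therefore reflect only how far these samples spread, and that spread may be technical. The comparison asked which genes differ between PIM1-expressing and control cells. Values are log2 signals, in which a step of 1 is a 2-fold change, and differences are PIM1 minus EV. A gene was called when its adjusted p in limma was under 0.05, with adjustment over all genes tested.

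Across all genes 27.0% were called, 16.1% higher and 10.9% lower in PIM1 cells, and 59.6% of the calls were therefore rises (73.5% with every array centred on its own median). The groups did not overlap for 43.2% of genes, with PIM1 above EV in 22.3% and below it in 20.9%. Calls were fewer at low signal: among the 11090 genes with mean signal below that of the median gene 10.0% were called, 2.87% higher and 7.15% lower. Arrays of a group correlated at 0.990 or more, and arrays of different groups at 0.963 to 0.967. No array stood apart.

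The epithelial label was checked against 10 defining markers. Of these, 6 lay below the median gene signal of 4.01, among them the epithelial adhesion gene Epcam, at 2.50 ± 0.026 (SD, n = 3) in EV and 2.35 ± 0.061 in PIM1 cells. Krt18 and the E-cadherin gene Cdh1 fell in PIM1 cells, and the 8 others were not called. Of 6 measured genes of a prostate luminal list 1 fell, Krt18, and 2 rose, with a median difference of -0.16. Those that rose were the prostate transcription factor gene Hoxb13, by 0.58 (adjusted p = 0.00377), and the surface protein gene Cd24a, by 1.65 (adjusted p = 1.70e-04; 0.94 with the mean of its probe sets), while Krt8, Tmprss2 and Pbsn were not called. Of 12 fibroblast markers 10 rose and 1 fell, with a median difference of 1.28. The summed linear signal of the fibroblast list ran from 2790 to 2840 on EV arrays and from 11900 to 12400 on PIM1 arrays. Pdgfra and Dcn had the largest differences of that list, 4.70 and 5.48, and Thy1 differed by -0.02. None of 8 endothelial markers was called, and all 8 lay below the median gene signal, where 10.0% of genes were called. Macrophage and leukocyte markers gave 1 rise and 1 fall among 9. Smooth muscle markers gave 2 rises and 2 falls among 8, and neural and glial markers 2 falls among 8. The shares over all genes, to set beside all these marker counts, were 16.1% higher and 10.9% lower. The part of the fibroblast markers in the filament results was not tested. In RNA from a bulk culture fewer cells of a type and less RNA per cell cannot be told apart.

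Keratin expression differed between the groups mainly through 1 gene, Krt18. None of the 53 keratin genes rose and 6 fell, which is 11.3% of them, against 10.9% of all genes that fell. The 6 were Krt18, Krt19, Krt33a, Krt77, Krt83 and Krt72. Only Krt18 and Krt33a among them passed under every alternative processing, and only Krt18 fell by more than 1 on the log2 scale. The median difference over all keratins was -0.17, beside -0.05 over all genes and -0.12 over the genes below the median signal. Of the 53 keratins, 41 lay below that median, and 4 of these 41 (9.76%) were called. For 11 keratins every PIM1 array was below every EV array, and for 0 above, beside 20.9% and 22.3% of all genes. Among the 11090 genes below the median signal, where most keratins lay, the same held for 2124 below and 556 above. After quantile normalization the keratin median was -0.09, after cyclic loess -0.09 and after median centring -0.07.

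**Figure D1:**
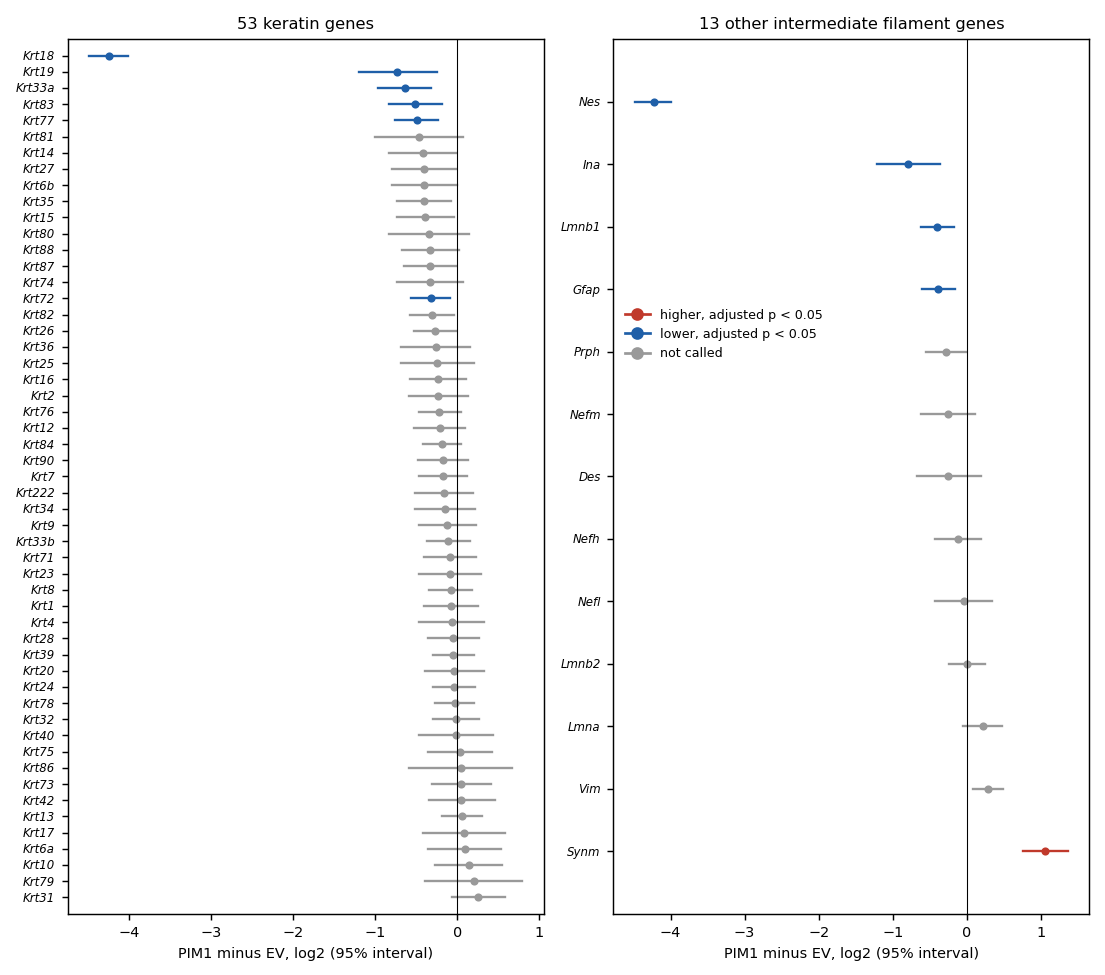
Each point is 1 gene's difference, PIM1 minus EV on the log2 scale, with its 95% interval from limma over 3 arrays per group; keratins are on the left and the other filament genes on the right. Krt18 at -4.24 and Nes at -4.23 stand far from the other members, which lie between -0.80 and 1.05.

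Krt18 encodes the type I keratin of simple epithelia and luminal prostate cells. Its signal was 9.09, 9.12 and 9.21 in EV cells and 4.79, 4.88 and 5.02 in PIM1 cells. Every PIM1 array lay far below every EV array, and the spread within each group was small beside the gap. The fall was 4.24 on the log2 scale (95% interval -4.48 to -4.01, adjusted p = 1.86e-07), an 18.9-fold difference. By size it ranked 38 among all 22180 genes in either direction, and by p it ranked 13.

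A second, dimmer probe set of Krt18 gave a smaller fall. It read 4.90, 4.82 and 4.84 in EV cells and 3.15, 3.53 and 3.03 in PIM1 cells. Both probe sets placed all PIM1 arrays below all EV arrays. For the second one the fall was 1.61, or 3.06-fold, with an adjusted p of 8.41e-04 when all probe sets were tested. The size of the Krt18 change therefore depends on the probe set, and its direction does not.

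Krt8, the type II partner of keratin 18, showed no matching change. It read 4.84, 4.65 and 4.70 in EV cells and 4.72, 4.75 and 4.48 in PIM1 cells, so the groups overlapped. The difference was -0.08 with a 95% interval of -0.34 to 0.18 (adjusted p = 0.654), and it was 0.02 after median centring. The interval leaves no room for a change of the size measured for Krt18 on this probe set. Within each array the Krt18 value exceeded that of Krt8 by 4.25, 4.47 and 4.51 in EV cells and by 0.07, 0.13 and 0.54 in PIM1 cells. The change in that within-array difference was -4.16 (exact two-sided permutation p = 0.1, the smallest that 3 arrays against 3 allow). With the mean of both Krt18 probe sets it was -2.85. Probe sets bind their targets with different strength, so these differences show unequal change in probe set signal and not which RNA was more abundant. Krt8 had a mean of 4.73 in EV cells, near the 4.90 of Krt18 in PIM1 cells, and background of unknown size may enter there. Whether the RNAs of both genes changed unequally was not tested.

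Krt8 and Krt18 are direct neighbours on chromosome 15, next to each other in the order of measured genes. The closest measured genes on the Krt8 side, Krt78 and Krt79, differed by -0.03 and 0.20 and were not called. On the far side of Krt18, Eif4b, a translation initiation factor gene, rose by 0.30 (adjusted p = 0.044), Tns2 differed by -0.04 and Spryd3 rose by 0.45. None of these 6 neighbours fell. Among the 3 measured genes on either side of Nes, on chromosome 3, Crabp2, which encodes a retinoic acid binding protein, fell by 1.65 from 6.77 ± 0.15 to 5.12 ± 0.23. The 5 other neighbours of Nes were not called.

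Sequence upstream of these genes is shown because Krt18 and Nes had the largest falls of all members, whereas Krt8, the gene beside Krt18, was not called. With the mean of its probe sets the Krt18 difference was -2.93, beside -4.23 for Nes, so how close the 2 falls were depends on the probe set. The 250 bases before each RefSeq gene start (build GRCm38.p6) follow, 5′ to 3′ on the gene's own strand. RefSeq promoter entries were at hand for 44 of the 66 members. Capitals mark matches, on either strand, to TATAA, to the GC box GGGCGG, to the AP-1 motif TGANTCA and to the STAT motif TTCNNNGAA.
Krt18, chr15:102027966-102028215, plus strand: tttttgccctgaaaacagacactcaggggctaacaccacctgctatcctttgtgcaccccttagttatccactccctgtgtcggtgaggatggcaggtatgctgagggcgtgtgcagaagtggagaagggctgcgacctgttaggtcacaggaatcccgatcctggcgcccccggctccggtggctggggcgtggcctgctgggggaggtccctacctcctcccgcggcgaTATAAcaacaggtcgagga
Krt8, chr15:102004343-102004592, minus strand: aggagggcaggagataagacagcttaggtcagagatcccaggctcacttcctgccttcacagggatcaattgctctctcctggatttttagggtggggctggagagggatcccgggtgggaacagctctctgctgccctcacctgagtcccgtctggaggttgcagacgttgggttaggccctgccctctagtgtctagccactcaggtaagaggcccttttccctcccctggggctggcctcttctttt
Nes, chr3:87970843-87971092, plus strand: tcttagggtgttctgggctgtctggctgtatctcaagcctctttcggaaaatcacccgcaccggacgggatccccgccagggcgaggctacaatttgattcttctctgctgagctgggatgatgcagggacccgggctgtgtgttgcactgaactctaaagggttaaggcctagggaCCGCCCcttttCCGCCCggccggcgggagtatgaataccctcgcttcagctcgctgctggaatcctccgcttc

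The Krt18 window holds TATAA once, 15 to 19 bases before the start, and the Nes window holds the GC box in reverse orientation at 57 to 62 and at 68 to 73 bases before the start. No searched motif was found in the Krt8 window. Neither the AP-1 nor the STAT motif was found in any of the 3 windows, which says only that these letters are not in these 250 bases. Of 32817 RefSeq promoter windows of the same length, 22.8% hold TATAA, 32.7% the GC box, 6.75% the AP-1 motif and 7.01% the STAT motif. The dinucleotide CG occurs 12 times in the Krt18 window and 15 times in the Nes window but 3 times in that of Krt8, beside a median of 6 over all windows. Both genes that fell thus have CG counts above that median, and no motif searched is common to both. CG was counted for individual genes only in these 3 windows, which were picked by the differences of their genes. Whether CG count goes with the falls was not tested.

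Krt19, a type I keratin of simple epithelium and of prostate progenitor cells, also fell, from a much lower signal. It read 3.91, 4.78 and 4.15 in EV cells and 3.57, 3.63 and 3.47 in PIM1 cells, with EV replicate 2 the highest. The groups did not overlap, and the difference was -0.73 (95% interval -1.20 to -0.25, adjusted p = 0.0321). Without EV replicate 2 the Krt19 difference was -0.48 (adjusted p = 0.0305). It was not called after quantile normalization or median centring (adjusted p = 0.0601 and 0.0544), nor without PIM1 replicate 1, 2 or 3 (0.0833, 0.0756 and 0.107), and over all alternatives its adjusted p ran from 0.0131 to 0.107. Krt7, a type II keratin of simple epithelium, read 3.85, 4.19 and 4.28 against 3.92, 3.99 and 3.89. Its difference was -0.17 with a 95% interval of -0.47 to 0.12 (adjusted p = 0.360). The Krt19 value minus that of Krt7 within arrays moved by -0.55 (exact two-sided permutation p = 0.1), and by -0.35 without EV replicate 2.

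The remaining simple keratins were not called. Krt80, a keratin of epithelial junctions and differentiating cells, read 5.05, 4.27 and 5.10 in EV and 4.49, 4.43 and 4.48 in PIM1 cells. EV replicate 2 lay below all PIM1 arrays and the other two EV arrays above them. The Krt80 difference was -0.34 (adjusted p = 0.268), and without EV replicate 2 it was -0.61 and passed (adjusted p = 0.00552). Krt20 and Krt23, keratins of gut and other simple epithelia, differed by -0.04 and -0.09 at EV means of 2.54 and 2.15. The sign of the Krt20 difference turned under every rescaling. In all, 2 of the 7 simple keratins fell and 0 rose, beside 10.9% and 16.1% of all genes. Of these 2, Krt19 kept its call in 7 of 13 alternatives. The list median was -0.17, the same as over all keratins. The summed linear signal of all 53 keratins was 1140 to 1200 on EV arrays and 532 to 574 on PIM1 arrays. Without Krt18 it was 583 to 630 and 499 to 544, so most of the gap was that of Krt18.

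**Figure D2:**
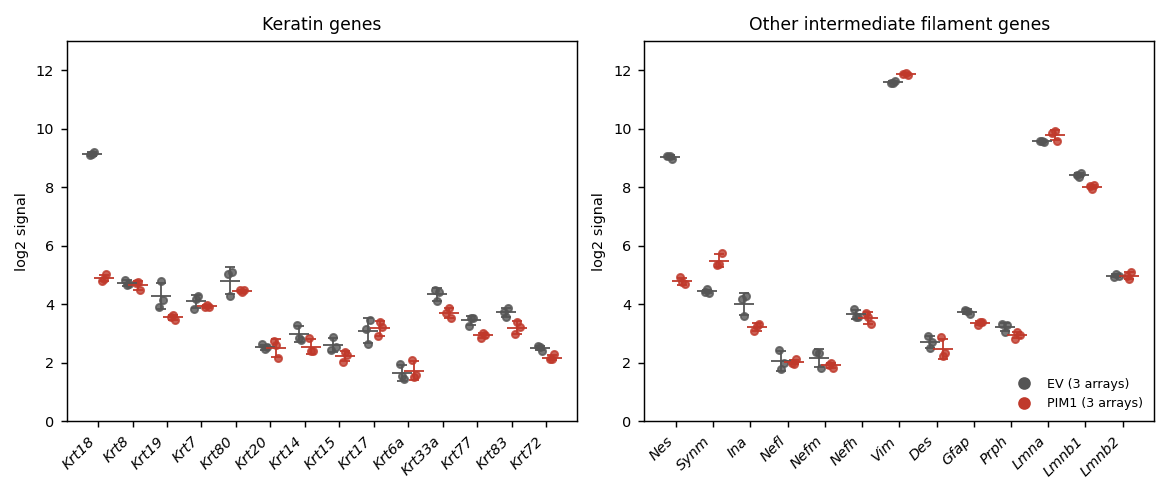
Log2 signal (vertical axis) of 14 keratin genes and the 13 other filament genes on each of the 3 EV and 3 PIM1 arrays; points are arrays, bars the group mean and SD. Krt18 and Nes drop from about 9 to below 5.1, and most other keratins lie below 5 in both groups.

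Keratins of basal and stressed epithelium gave no call. Of 7 listed, 6 were measured, all below the median gene signal, and 0 rose or fell (list median -0.31). Of all genes below that signal, 2.87% rose and 7.15% fell. Krt14, the main type I keratin of basal cells, read 3.30, 2.84 and 2.79 in EV and 2.84, 2.40 and 2.42 in PIM1 cells, with a difference of -0.42 (adjusted p = 0.119) that was -0.26 without EV replicate 1. Krt15, a keratin of basal stem cells, had EV arrays at 2.44 to 2.89 and PIM1 arrays at 2.04 to 2.38 (difference -0.39, adjusted p = 0.0932, and -0.25 without EV replicate 2). The Krt15 groups did not overlap, but the gap was small beside their spread. Krt17, induced in wounded and dividing epithelium, read 3.16, 2.65 and 3.48 against 2.90, 3.40 and 3.22, and its difference was 0.08. The wound-induced keratins Krt6a, Krt6b and Krt16 differed by 0.09, -0.40 and -0.23. At signals this low, background of unknown size enters the values, so a missing call is no sign that a keratin was kept.

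Among 12 measured keratins of suprabasal stratified epithelium, 1 fell and 0 rose (list median -0.08), beside 10.9% and 16.1% of all genes. Krt77, found in sweat gland ducts and epidermis, read 3.26, 3.54 and 3.54 in EV and 2.86, 3.03 and 2.96 in PIM1 cells. The groups did not overlap and the difference was -0.49 (adjusted p = 0.0154). The Krt77 call was lost at adjusted p = 0.0525 with quantile normalization at 0.0553 with cyclic loess and at 0.0657 without PIM1 replicate 1. Krt4 and Krt13, the partner keratins of wet stratified epithelia, had EV means of 2.48 and 2.64 and differences of -0.07 and 0.06. Krt10 and Krt1, the partners of the upper epidermis, differed by 0.14 and -0.08. Krt2, Krt9, Krt12, Krt24, Krt76, Krt78 and Krt79 lay between -0.23 and 0.20.

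The 23 measured keratins of hair and of the inner root sheath are used by the hair follicle. Most of them, 20, lay below the median gene signal, but Krt33a stood at percentile 50.2 of genes by mean signal. On every PIM1 array, however, Krt33a read below the median gene signal of 4.01. Of the 23, 3 fell and 0 rose, and the list median was -0.19. Over all genes 10.9% fell and 16.1% rose, and below the median signal 7.15% fell and 2.87% rose. Krt33a, a type I hair keratin, read 4.50, 4.10 and 4.42 in EV and 3.71, 3.86 and 3.54 in PIM1 cells. Its difference of -0.64 (adjusted p = 0.0106) stayed past the threshold under all alternatives, with adjusted p from 0.00391 to 0.0418. Krt83, a type II hair keratin, fell by 0.51 from 3.72 ± 0.15 to 3.21 ± 0.21 (adjusted p = 0.0275). Krt72, an inner root sheath keratin, fell by 0.32 from 2.50 ± 0.083 to 2.18 ± 0.095 (adjusted p = 0.0490). Krt83 kept its call in 5 of 13 alternatives and lost it under all 3 rescalings. It was also not called without EV replicate 1 or 3 (adjusted p = 0.0616 and 0.0762) or PIM1 replicate 1 or 3 (0.0968 and 0.0713). Krt72 kept its call in 2 of 13 and also lost it under all 3 rescalings. The Krt72 call was lost without EV replicate 1, 2 or 3 (adjusted p = 0.110, 0.107 and 0.0528). So it was without PIM1 replicate 1 or 2 (0.157 and 0.152). The 3 falls in this list were of 0.32 to 0.64. The 20 others of the list were not called. Krt42, Krt87, Krt88, Krt90 and Krt222, which stood in no role list, differed by 0.05, -0.33, -0.33, -0.17 and -0.16 and were not called. The 47 keratins not called ranged from -0.47 for Krt81 to 0.25 for Krt31.

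Type I keratin genes lie together on chromosome 11 and type II genes on chromosome 15, where Krt18 is the exceptional type I gene. Of 27 measured keratins on chromosome 11, 2 fell, with a median difference of -0.12. Of 26 on chromosome 15, 4 fell, with a median of -0.21. Krt8, Krt78 and Krt79, the 3 keratins nearest to Krt18, were not among these 4. Those that fell there include Krt83 and Krt72, which kept their calls in 5 and 2 of 13 alternatives. Of all genes 10.9% fell, and of those below the median signal 7.15%. A difference between the chromosomes was not tested.

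Among the 13 other filament genes, Nes fell, Synm rose, and Ina, Lmnb1 and Gfap fell by less than 1 on the log2 scale. In all 1 rose and 4 fell, 38.5% called beside 27.0% of all genes. The median difference was -0.25, and -0.11 after quantile normalization. Of the 13 genes, 7 lay below the median gene signal.

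Nestin, encoded by Nes, is a large filament protein of stem and progenitor cells that assembles with vimentin. Nes read 9.06, 9.05 and 8.95 in EV cells and 4.92, 4.76 and 4.68 in PIM1 cells. The groups were separated by more than 4 log2 units at their nearest arrays. The fall was 4.23 (95% interval -4.48 to -3.99, adjusted p = 1.99e-07), an 18.8-fold difference that ranked just after Krt18, at 39 by size and 14 by p. Under all alternatives it lay between -4.33 and -4.14.

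Synm encodes synemin, a filament protein that needs vimentin or desmin to assemble and links filaments to adhesion sites. It read 4.42, 4.51 and 4.38 in EV and 5.33, 5.38 and 5.75 in PIM1 cells. The groups did not overlap, and Synm was the only filament gene called higher in the reported fit. The rise was 1.05 (95% interval 0.75 to 1.36, adjusted p = 6.74e-04), a 2.07-fold difference. It passed under all alternatives, with values from 0.92 to 1.15. The genes on either side of Synm in gene order, Ttc23 and 4833412C05Rik, differed by 0.05 and -0.10.

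Vim, the vimentin gene, had high signal in both groups. It read 11.57, 11.56 and 11.63 in EV cells and 11.88, 11.90 and 11.83 in PIM1 cells, so all PIM1 arrays were above all EV arrays. The difference was 0.28 (95% interval 0.08 to 0.49) and its adjusted p of 0.0508 fell just outside the threshold. It passed with the rescalings, with a trended and robust variance (adjusted p = 1.55e-04) and among the brighter genes. A second probe set of Vim read 8.05, 7.95 and 8.42 against 9.92, 10.05 and 8.73. Its difference was 1.43 (adjusted p = 0.0373 over all probe sets), with PIM1 replicate 3 more than 1 unit below the other two PIM1 arrays. The mean of both probe sets differed by 0.86 (adjusted p = 0.0109). Both probe sets thus gave higher values in PIM1 cells, by amounts that differed several-fold. Fibroblast markers, of which 10 of 12 rose beside 16.1% of all genes, moved in the same direction on these arrays.

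Krt18 and Nes were also read against Vim on the same array. The Krt18 value minus that of Vim moved by -4.53 between the groups and the Nes value minus that of Vim by -4.52 (exact two-sided permutation p = 0.1 for each). With the mean of probe sets these values were -3.78 and -5.09. Both pairs subtract the same Vim values, so they do not compare Krt18 with Nes. For the 5 pairs read in this way the Benjamini-Hochberg adjusted value was also 0.1, and in each pair all PIM1 arrays lay below all EV arrays.

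**Figure D3:**
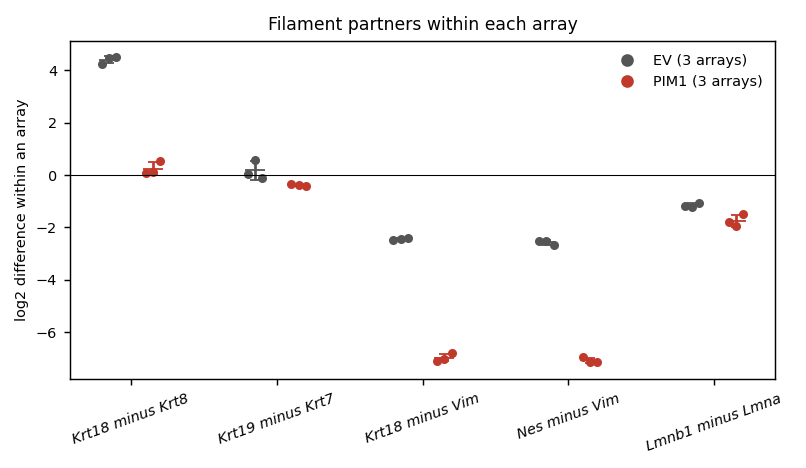
Differences between the log2 signals of 2 filament genes on the same array (vertical axis) for 5 pairs, with points for arrays and bars for group mean and SD. The Krt18 minus Krt8 value drops from 4.41 to 0.25, and both values taken against Vim drop from about -2.5 to about -7.

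The other type III genes had low signals. Gfap, the filament gene of astrocytes, read 3.81, 3.78 and 3.66 in EV and 3.29, 3.39 and 3.41 in PIM1 cells. The groups did not overlap and the difference was -0.39 (adjusted p = 0.0201). It kept its call in 4 of 13 alternatives. The Gfap call was lost under all 3 rescalings. It was also lost without EV replicate 1 or 2 (adjusted p = 0.0529 and 0.0513) or PIM1 replicate 1 or 2 (0.0845 and 0.0617). Des, the desmin gene of muscle, differed by -0.25 (adjusted p = 0.378) with overlapping groups. Prph, the peripherin gene of peripheral neurons, differed by -0.28 (adjusted p = 0.115).

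Neuronal filament genes fell in 1 case. Ina encodes internexin, an early neuronal filament protein. It read 4.18, 3.59 and 4.29 in EV and 3.08, 3.27 and 3.32 in PIM1 cells, a difference of -0.80 (95% interval -1.22 to -0.37, adjusted p = 0.0145). The EV arrays spread more widely than the PIM1 arrays but did not reach them. Without PIM1 replicate 1 the Ina difference was -0.73 and was not called (adjusted p = 0.0575). The neurofilament genes Nefl, Nefm and Nefh, for the light, medium and heavy chains, differed by -0.04, -0.26 and -0.12 at EV means of 2.08, 2.17 and 3.65. None of these 3 was called, and Nefm passed without EV replicate 3 (-0.44, adjusted p = 0.0280).

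The nuclear lamins had small differences at high or middle signal. Lmnb1, a B-type lamin that stays bound to the nuclear membrane and is abundant in dividing cells, read 8.41, 8.35 and 8.49 in EV and 8.03, 7.95 and 8.07 in PIM1 cells. It fell by 0.40, a 1.32-fold difference (adjusted p = 0.0172), and the groups did not overlap. The Lmnb1 call was lost after median centring (adjusted p = 0.0605) and without EV replicate 3 (0.0502) or PIM1 replicate 1 or 2 (0.0588 and 0.0743). Lmna, the gene of the A-type lamins, read 9.58, 9.57 and 9.54 against 9.84, 9.91 and 9.57, a difference of 0.21 (95% interval -0.05 to 0.47, adjusted p = 0.219). PIM1 replicate 3 lay among the EV arrays and the other two PIM1 arrays above them. Lmnb2, the other B-type lamin gene, had a mean of 4.98 in both groups, with a 95% interval of -0.24 to 0.24 for the difference. The Lmnb1 value minus that of Lmna within arrays moved by -0.61 (exact two-sided permutation p = 0.1).

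**Figure D4:**
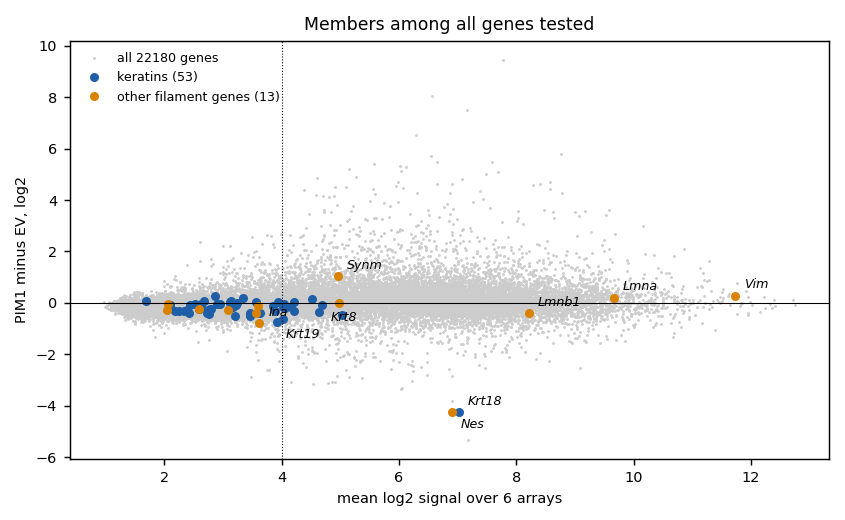
Each grey point is 1 of 22180 genes, with its mean log2 signal over 6 arrays (horizontal axis) and its difference PIM1 minus EV (vertical axis); blue points are keratins, orange points other filament genes and the dotted line the median gene. Most keratins lie left of the line with differences under 1, while Krt18 and Nes lie together near the bottom of the plot.

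Genes of the structures that hold filaments in place were read from lists of partners. Of 17 desmosome genes 4 fell and 1 rose, with a median difference of -0.15. The share called was 29.4%, near the 27.0% of all genes, with 23.5% lower beside 10.9% and 5.88% higher beside 16.1%. Jup, which encodes plakoglobin, a plaque protein between desmosomal cadherins and keratin, read 8.26, 8.38 and 8.41 in EV and 6.12, 6.32 and 6.32 in PIM1 cells. It fell by 2.09 (adjusted p = 5.09e-06). The plakophilin genes Pkp1 and Pkp2, of the same plaque, fell by 2.26 and 2.02, and Perp, a membrane protein of desmosomes, fell by 2.15. Each of these 4 genes fell more than 4-fold, with all PIM1 arrays below all EV arrays. Ppl, the periplakin gene, read 5.33, 5.64 and 5.77 against 7.67, 7.69 and 7.66 and rose by 2.09, 4.27-fold. These 5 genes kept their calls under all alternatives. Dsp, the desmoplakin gene that ties keratin to the plaque, had a low signal of 2.40 ± 0.21 in EV and 2.39 ± 0.12 in PIM1 cells. The desmosomal cadherin genes (Dsg1a, Dsg1b, Dsg1c, Dsg2, Dsg3, Dsg4, Dsc1, Dsc2 and Dsc3) were at EV means between 1.93 and 3.28, and none was called.

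Of 7 measured plakin and hemidesmosome genes, 1 fell and 1 rose (median 0.04), and this share of 28.6% was near the 27.0% of all genes called. Itga6, an integrin subunit gene of hemidesmosomes, fell by 2.10 from 8.92 ± 0.053 to 6.82 ± 0.13 (adjusted p = 4.86e-06). Its partner subunit gene there, Itgb4, differed by -0.23 (adjusted p = 0.180) at an EV mean of 3.88. The hemidesmosome collagen gene Col17a1 differed by 0.04 (adjusted p = 0.858) at an EV mean of 3.78. Both Itgb4 and Col17a1 lay below the median gene signal. The tetraspanin gene Cd151 rose by 0.64. The large linker genes Plec, Dst and Macf1, which tie filaments to one another and to actin and microtubules, differed by -0.10, 0.10 and 0.13 at signals of about 8, and none was called.

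Of 13 measured partners of the nuclear lamina, 7 rose and 1 fell, with a median difference of 0.36. All 13 lay above the median gene signal, and over the 11090 genes at or above it the median difference was 0.10 and 29.4% of genes rose and 14.7% fell. The shares of lamina partners that rose and fell were 53.8% and 7.69%, beside 16.1% and 10.9% of all genes. The 7 that rose were Lbr, Sun1, Sun2, Syne1, Syne3, Zmpste24 and Icmt. Sun2, which spans the inner nuclear membrane, rose by 0.69 from 7.56 ± 0.016 to 8.25 ± 0.2, and Syne3, its partner in the outer membrane, rose by 0.71. Zmpste24 and Icmt, which process the tail of prelamin A, rose by 0.58 and 0.36. The Icmt call was lost after quantile normalization (0.21, adjusted p = 0.148) and held in 6 of 14 alternatives; it was lost without EV replicate 1 (0.0643) or any PIM1 replicate (0.0631, 0.0794 and 0.0658). The Syne3 call was lost without PIM1 replicate 1 (adjusted p = 0.0517), and that of Sun2 with the mean of its probe sets (0.0525). Nup153, a nuclear pore protein that binds lamins, fell by 0.77 from 9.21 ± 0.05 to 8.44 ± 0.11. The lamin receptor gene Lbr rose by 0.48, the opposite direction to Lmnb1, whose product it binds.

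**Figure D5:**
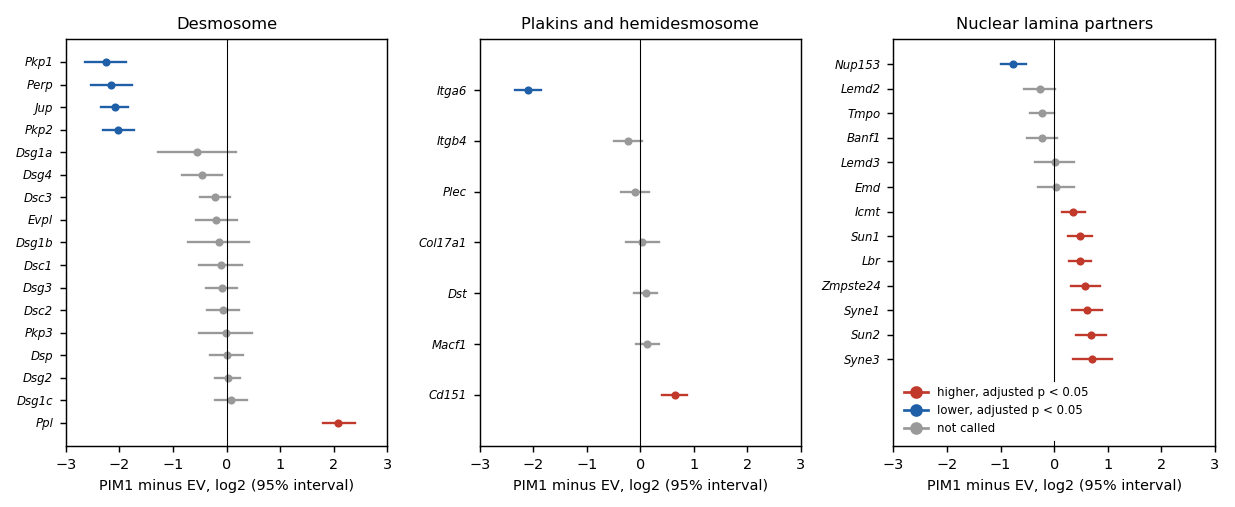
Differences PIM1 minus EV on the log2 scale with 95% intervals from limma for 17 desmosome genes, 7 plakin and hemidesmosome genes and 13 partners of the nuclear lamina. In the desmosome panel 4 genes lie near -2 and Ppl near 2, and in the lamina panel 7 genes lie between 0.36 and 0.71 and Nup153 at -0.77.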

How the data were processed

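RNA of 3 EV and 3 PIM1 samples was labelled with the GeneChip WT PLUS kit, per the labels' protocols. The deposited log2 values are the authors' signals, 1 per probe set and array. The submitters' processing notes name Affymetrix Expression Console. Background correction, probe summarization, normalization and log base: not given in the sources used here; log2 was inferred from the range of the values. No detection call was used, and the number of arrays limits the precision.

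Of 41345 probe sets, 23521 had 1 gene symbol in the platform annotation, 1814 several and 16010 none. Of the 23521, 23328 matched RefSeq (GRCm38.p6) by gene identifier. The brightest probe set of each gene was tested by limma's lmFit and eBayes (limma 3.58.1, R 4.3.3; group only, two-sided), with Benjamini-Hochberg adjustment over 22180 genes, tested on simulated data. Partner pairs were compared with exact permutation tests.

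Members and lists were chosen with earlier results of these data known. Named genes are all called members, 13 preset keratins, all non-keratin members, and in each partner list every called gene; other members are named by role, markers by list, and Crabp2 and the other neighbours by gene order; markers and neighbours were chosen after their values were seen. Alternatives were 3 rescalings, a trended and robust variance, the brighter 11090 genes, mean or uncollapsed probe sets, the replicate block and leaving out each array.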

Additional observations from a re-analysis of the deposited data

How the results depend on the processing

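Each named gene and each count was recomputed under 14 alternatives where the gene could be tested. Krt18, Krt33a, Nes and Synm kept direction and call in all of them. Of 598 values of named genes, 513 kept direction and side of the threshold, 52 lost a call, 9 gained one and 24 changed sign, all of the last for genes that were not called. The keratins that fell numbered 6 in the reported fit, 2 after quantile normalization, 3 after median centring, 3 after cyclic loess, 2 among the brighter genes (12 keratins tested), 3 when all probe sets were tested, and 2 to 7 leaving out single arrays, with 2 without PIM1 replicate 1. Other filament genes that rose numbered 2 in place of 1 after quantile normalization, median centring, cyclic loess, with trended and robust variance, among the brighter genes and with the mean of probe sets, the added gene being Vim. Those that fell numbered 4, and 2 after median centring and 2 among the brighter genes (6 tested), with 1 to 4 leaving out single arrays (1 without PIM1 replicate 1 and 2 without PIM1 replicate 2). Lamina partners that fell numbered 2 in place of 1 after quantile normalization and with trended and robust variance. Over all genes the falls numbered 2420, and 1558 after median centring, 1572 over all probe sets and 1463 to 2224 leaving out single arrays (1490 without PIM1 replicate 1, 1463 without PIM1 replicate 2). Apart from the smaller tests named here, the cause was not tested.

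The within-array change of Krt18 against Krt8 was -2.85 with the mean of probe sets. That of Krt18 against Vim was -4.76 after quantile normalization, -4.67 after cyclic loess and -3.78 with the mean of probe sets, and that of Nes against Vim was -4.74, -4.66 and -5.09. Sign changed for Krt20 (0.09, 0.06 and 0.10 after quantile normalization, median centring and cyclic loess), Krt4 (0.06, 0.02 and 0.06), Nefl (0.10, 0.05 and 0.10), and after median centring for Krt8 (0.02) and Lmnb2 (0.10). Leaving out single arrays gave -0.15 to 0.14 for Krt20, 0.00 to 0.12 for Krt13, -0.15 to 0.27 for Krt17, -0.10 to 0.25 for Krt6a, -0.27 to 0.07 for Krt4, -0.13 to 0.01 for Krt8, -0.19 to 0.14 for Nefl and -0.06 to 0.05 for Lmnb2.

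Same-numbered arrays of the groups deviated together little (correlations 0.0558, -0.0314 and 0.00875 over genes). Arrays of unlike number gave -0.0632 to 0.0547. With 3 arrays per group this cannot exclude pairing by number, which the labels do not settle. With the replicate number as a block 6 keratins fell, other filament genes had 1 rise and 3 falls, and over all genes 3218 rose and 2103 fell. Krt14 then passed (adjusted p = 0.0321), and Krt72, Gfap and Icmt did not (0.102, 0.0521 and 0.0530). Low signal limits what can be said of 41 of 53 keratins and 7 of 13 other members.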
